A study of Mus musculus with 2 samples.

Results

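The 10 genes described here encode peptides that sensory neurons release: Calca, Calcb, Tac1, Vip, Cartpt, Sst, Uts2b, Adcyap1, Gal and Nmb. They were taken by symbol from the feature list of a single-nucleus RNA sequencing study of the vagus nerve ganglia, and each of the 10 matched a row among the 32286 features. The study sampled C57BL/6J mice of the Rosa26-floxed-STOP-Cas9-eGFP genotype on a standard chow diet, bought at 8 to 9 weeks of age, 4 weeks after a retrograde virus carrying Cre (AAVrg-Cre) was injected into the liver. The female library held nuclei from 14 ganglia of 7 mice and the male library held nuclei from 16 ganglia of 8 mice. Each sex was therefore 1 pool and 1 library. Effects of sex and of the library cannot be told apart, and no difference, between sexes or between cell types, could be tested over animals.

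Neuropeptides are made as longer precursors, cut by proprotein convertases in the secretory pathway and in many cases amidated. They are stored in dense-core vesicles and released on stimulation from both the central and the peripheral ending of a sensory neuron. The vagal ganglia hold neurons of placodal origin (nodose), which innervate the heart, lung and gut, and neurons of neural crest origin (jugular), which resemble somatosensory neurons and express Prdm12. Calca and Calcb encode the alpha and beta forms of calcitonin gene-related peptide (CGRP), a vasodilator, and Tac1 encodes substance P and neurokinin A, which drive neurogenic inflammation. Vip encodes vasoactive intestinal peptide, Uts2b encodes urotensin-related peptide, Cartpt encodes the cocaine- and amphetamine-regulated transcript peptide, Adcyap1 encodes PACAP, Gal encodes galanin, Nmb encodes neuromedin B and Sst encodes somatostatin.

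The members lie on 7 chromosomes of the mm10 mouse genome, and in the GENCODE M21 models they have up to 7 exons. Calca (chromosome 7, 114631478 to 114636357, minus strand) and Calcb (chromosome 7, 114718643 to 114723365, plus strand) are neighbours in the genome. The Nmb model (chromosome 7, 80902227 to 80905076, minus strand) overlaps Sec11a on the same strand, so reads counted for Nmb are uncertain. No other member overlapped an annotated gene. RefSeq starts in build GRCm38.p6 were given for 9 of the 10 members, Calcb being the one without. The 120 bases before the start, in the direction of transcription, are shown for a pair of members that were highest in neuron type 7 (Calca and Adcyap1) and a pair that were highest in type 12 (Vip and Uts2b), since these are the types described most closely. Capitals mark TGACG, read on either strand, the core of the cAMP response element.
Calca, chr7:114636358-114636477, minus strand: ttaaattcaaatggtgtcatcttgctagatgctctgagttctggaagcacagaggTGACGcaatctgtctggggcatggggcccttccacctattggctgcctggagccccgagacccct
Adcyap1, chr17:93198897-93199016, plus strand: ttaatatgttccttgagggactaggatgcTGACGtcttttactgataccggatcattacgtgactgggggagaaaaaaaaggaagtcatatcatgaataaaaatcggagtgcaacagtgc
Vip, chr10:5639098-5639217, plus strand: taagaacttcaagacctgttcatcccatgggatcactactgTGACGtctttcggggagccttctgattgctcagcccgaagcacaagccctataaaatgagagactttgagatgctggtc
Uts2b, chr16:27370240-27370359, minus strand: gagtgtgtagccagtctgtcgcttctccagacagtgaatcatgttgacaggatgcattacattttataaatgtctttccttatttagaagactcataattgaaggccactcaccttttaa
The letters TGACG began 65 bases before the Calca start, 91 bases before this Adcyap1 start and 79 bases before the Vip start, and were not found in the Uts2b window. They were in the window of 6 of the 9 members (for Adcyap1 at 1 of its 2 starts) and in 11.7% of the 32851 promoters of the table. The 8-letter palindrome TGACGTCA, which contains TGACG on each strand, was in the windows of Cartpt and Sst and in 1.24% of all promoters.

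The deposited matrix held unique molecular identifier (UMI) counts of 3791 female and 4923 male nuclei, with medians of 2381 and 2658 UMIs per nucleus. The libraries shared 8 barcode sequences, and Xist and 4 Y-linked genes matched the sex given to each library. Clustering without the members gave 2298 neuron-like nuclei, 684 female and 1614 male, and 11 other classes, of which macrophage-like (145 and 141 nuclei) and endothelial cell-like nuclei (217 and 196 nuclei) served as background. The neuron-like nuclei fell into 15 types, numbered by size. Of these, 5 were jugular-type (Prdm12 at 0.867 to 1.60 UMIs per 10000 and P2rx2 at 0.0839 to 0.194), 7 were nodose-type (P2rx2 at 0.255 to 1.73 and Prdm12 at 0.0449 to 0.132) and type 6 was sympathetic-like (9 female and 147 male nuclei). Types 1 and 4 stayed unnamed because genes of satellite glia or Schwann cells stood above the neuron lists in them.

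None of the 10 peptide genes was at least 2-fold higher in neuron-like nuclei than in both backgrounds in both libraries, while 6.90% of the 14641 genes tested were. In the female library, Calca stood at 2.99 UMIs per 10000 in neuron-like nuclei, 2.80 in macrophage-like nuclei and 2.57 in endothelial cell-like nuclei. In the male library, Calca stood at 4.19, 7.93 and 5.6 UMIs per 10000 in the same classes. Neuron-like nuclei did not differ from the background beyond counting error in the female library, with a ratio to macrophage-like nuclei of 1.07 (95% interval 0.863 to 1.34), and were below it in the male library, with a ratio of 0.528 (0.465 to 0.601). These intervals, like the others given below, cover counting error only.

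Adcyap1, the member past a limit of 1.5-fold, stood at 0.764 UMIs per 10000 in female neuron-like nuclei, against 0.445 in macrophage-like and 0.287 in endothelial cell-like nuclei. The male values were 0.871, 0.574 and 0.579 UMIs per 10000. The 4 ratios ran from 1.51 to 2.66, and the interval of the male ratio to macrophage-like nuclei, 0.958 to 2.57, included 1. Uts2b had no level above background, at 0.361 and 0.369 UMIs per 10000 in female and male neuron-like nuclei, against 0.422 and 0.837 in endothelial cell-like nuclei, though the interval of the female ratio, 0.567 to 1.34, included 1. Over the members the median log2 ratio of neuron-like to background nuclei was -0.14, beside -0.21 over 18004 genes.

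**Figure D1:**
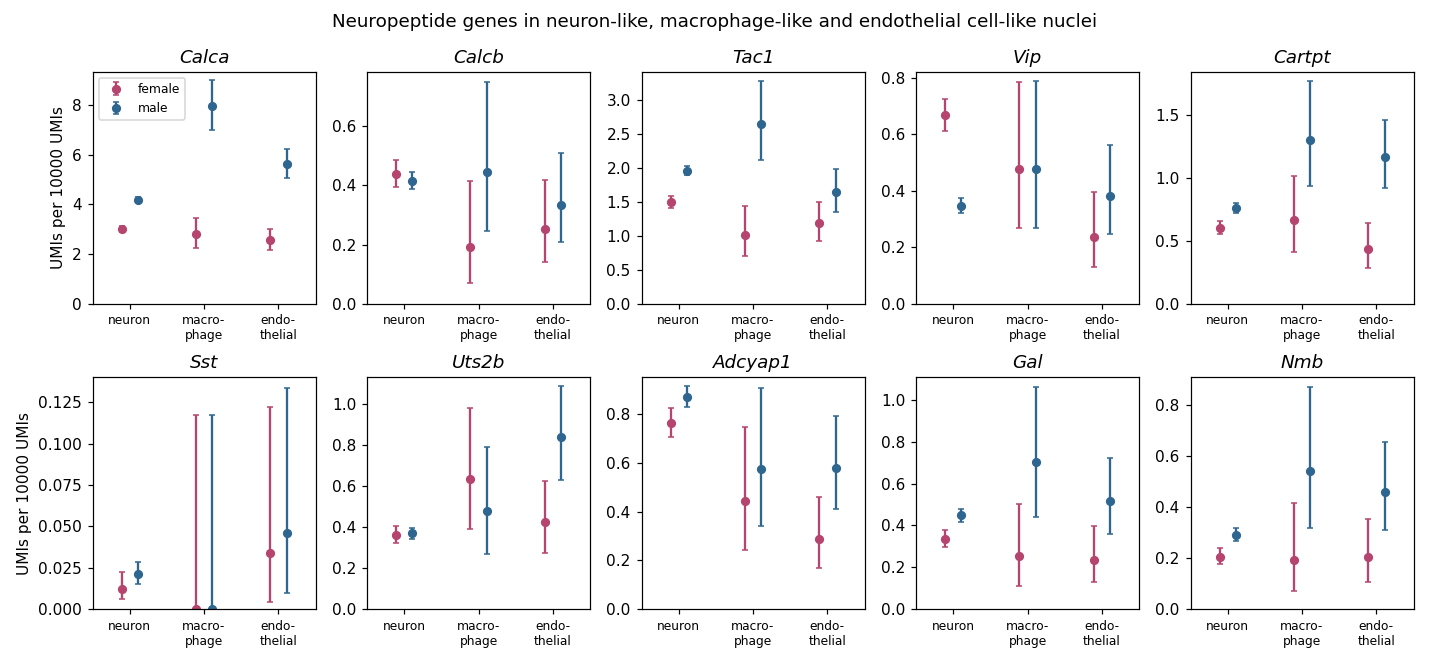
Level of each gene in UMIs per 10000 UMIs (y axis, from 0, a scale of its own for each gene) in neuron-like, macrophage-like and endothelial cell-like nuclei, with points for the female and male libraries and bars for 95% Poisson intervals. The neuron-like points are not 2-fold above both backgrounds in both libraries for any gene, and Calca in male macrophage-like nuclei (7.93) lies above male neuron-like nuclei (4.19).

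Calca transcripts were found in every other class too. Free RNA from broken cells adds such UMIs in droplet data, and its part in the levels below was not tested. Over the 11 classes other than neuron-like, Calca ran from 1.54 to 3.82 UMIs per 10000 in female and from 5.32 to 7.93 in male nuclei. The ratio of Calca to Tac1 UMIs ran from 2.17 to 3.30 over these classes in female and from 2.13 to 3.71 in male nuclei. Over the neuron types with at least 20 such UMIs it ran more widely, from 0.344 in type 13 to 7.3 in type 1 in female and from 1.17 in type 14 to 4.10 in type 2 in male nuclei. In type 7 it was 1.69 (1.52 to 1.87) and 1.76 (1.66 to 1.87).

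Neuron-like nuclei were deeper, with medians of 5940 and 7551 UMIs against 1775 to 2307 in the backgrounds. Counted as UMIs per nucleus, Calca stood at 3.56 in female neuron-like nuclei, 0.607 in macrophage-like nuclei and 0.700 in endothelial cell-like nuclei, and at 4.82, 1.77 and 1.88 in the male library. On this scale 8 of the 10 members (the exceptions being Sst and Uts2b) were at least 2-fold higher in neuron-like nuclei in both libraries, beside 67.7% of all genes tested. The share of nuclei with a Calca UMI, thinned to 1000 UMIs per nucleus, was 23.6% of neuron-like, 29.2% of macrophage-like and 23.3% of endothelial cell-like nuclei in the female library, and 32.2%, 51.1% and 45.9% in the male library. Before thinning the neuron-like shares were 60.1% and 83.5%, and the macrophage-like shares were 44.8% and 78.7%. In neither library did the thinned neuron-like share exceed that of both backgrounds, so a Calca UMI in a nucleus was not read as expression.

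Between neuron groups most of the peptides differed in level, some being higher in jugular-type and others in nodose-type nuclei. Calca, Calcb, Tac1 and Nmb were at least 2-fold higher in jugular-type nuclei in both libraries, which is 4 of the 10 members, beside 5.05% of 13931 genes tested. Vip, Cartpt, Uts2b and Sst were at least 2-fold lower, beside 4.64% of genes. Sst was counted on its levels alone, without the 0.5 UMIs added to each sum for all genes, and rested on 1 against 2 UMIs in the female library and 7 against 18 in the male library, with intervals that included 1. Of the 9 members with at least 20 UMIs in each library, as asked of all genes, 4 were higher and 3 were lower. Adcyap1 and Gal differed by less than 2-fold. The members' median log2 ratio was 0.11, beside 0.0028 over 16759 genes, and the members ran from -2.68 to 2.99.

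Calca stood at 5.59 UMIs per 10000 in female jugular-type and 0.717 in female nodose-type nuclei, and at 8.05 and 1.65 in the male library. The ratio was 7.79 (6.82 to 8.94) in female and 4.87 (4.57 to 5.19) in male nuclei. Calcb, at 0.904 against 0.0647 in female and 0.859 against 0.131 in male nuclei, had ratios of 14.0 (9.07 to 22.6) and 6.54 (5.25 to 8.21). Both CGRP genes had a lower ratio in the male library. Calca was higher there in both groups, and Calcb was higher in nodose-type nuclei. Tac1 stood at 2.67 against 0.556 UMIs per 10000 in female and 3.98 against 0.672 in male nuclei, with ratios of 4.81 (4.11 to 5.65) and 5.92 (5.37 to 6.53). A single nucleus gave 79 of the 189 female nodose-type Tac1 UMIs. Without the nucleus of each group with the most Tac1 UMIs the ratios were 7.27 (5.96 to 8.95) and 5.87 (5.32 to 6.50), so the order of the libraries turned. The Nmb ratios, 3.02 (2.06 to 4.52) and 2.96 (2.38 to 3.70), lay close together. The male jugular-type Nmb level, 0.467 UMIs per 10000, was below the 0.542 of male macrophage-like nuclei. Calca, Calcb and Tac1 in male jugular-type nuclei were above macrophage-like nuclei, Calca only slightly, at 8.05 against 7.93.

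On the nodose side, Vip stood at 0.0791 UMIs per 10000 in female jugular-type and 1.42 in female nodose-type nuclei, and at 0.139 and 0.451 in the male library. Uts2b stood at 0.102 against 0.665 in female and 0.159 against 0.463 in male nuclei. Cartpt stood at 0.274 against 0.903 and 0.388 against 0.945. In the male library these nodose-type levels were below those of macrophage-like nuclei, at 0.478, 0.478 and 1.31 for Vip, Uts2b and Cartpt. Female macrophage-like nuclei stood at 0.477, 0.636 and 0.668. Without the nucleus with the most UMIs of each gene, female nodose-type levels were 0.274, 0.247 and 0.564, below those. A single female nucleus, described with type 12, gave 391 of the 482 female nodose-type Vip UMIs. The 4 lower calls were also reached without the nucleus that held the most UMIs of each gene in each library. For Sst the female library then held 0 against 1 UMI, too few to bear on the call. With each nucleus thinned to 1000 UMIs none of the 4 was called, and with nuclei weighted equally Vip alone was.

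**Figure D2:**
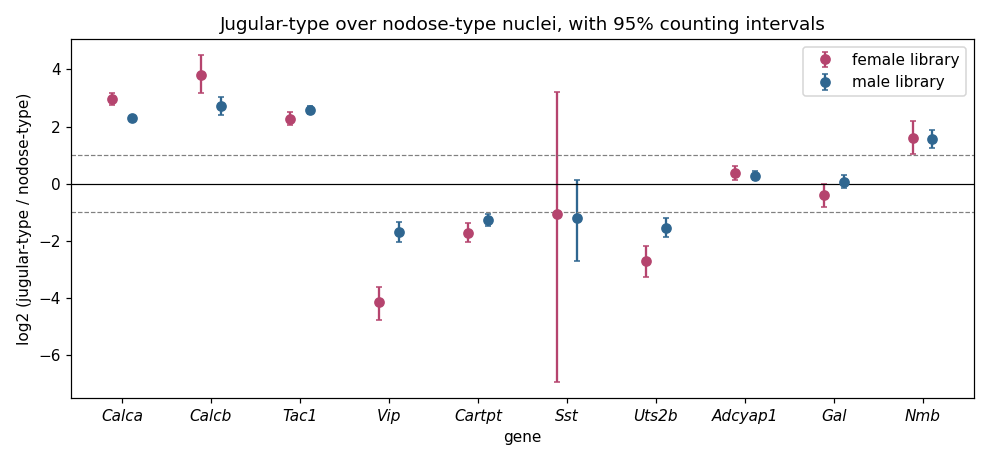
Log2 ratio of the level in jugular-type to that in nodose-type nuclei (y axis) for each gene, in the female and male libraries, with 95% counting intervals and dashed lines at 2-fold. Calca, Calcb, Tac1 and Nmb lie above the upper line and Vip, Cartpt and Uts2b below the lower line in both libraries, and the wide bars of Sst cross 0.

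Within the jugular-type nuclei, CGRP and substance P transcripts were concentrated in type 7, a type of 47 female and 96 male nuclei led by Gfra3, the receptor for artemin, and Kit, the receptor for stem cell factor, with Trpv1 at 3.57 UMIs per 10000. Calca stood at 13.9 UMIs per 10000 (13.1 to 14.8) there in female and 23.5 (22.7 to 24.4) in male nuclei. Tac1 stood at 8.25 (7.61 to 8.94) and 13.4 (12.8 to 14.0). These were the highest levels of both genes among the types, and the next Calca level, in type 2 (led by Tafa1), was 5.42 and 6.56 UMIs per 10000. In female type 2, 37.3% of the Calca UMIs came from 1 nucleus with 242 of them, and in male type 2 a nucleus with 355 gave 33.2%. Without those nuclei the type 2 levels were 3.56 and 4.54 UMIs per 10000, and the male level was then below the 5.35 of type 1.

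Adcyap1, at 3.48 (3.06 to 3.94) and 4.07 UMIs per 10000 (3.73 to 4.44), and Calcb, at 1.81 (1.51 to 2.15) and 1.69 (1.47 to 1.93), were also at their highest in type 7. Calca, Calcb, Tac1 and Adcyap1 were each at least 2-fold above both backgrounds there in both libraries, 4 of the 8 members with enough UMIs, beside 8.16% of the genes tested in that type. The 4 were also above it without the nucleus with the most UMIs of each gene: Calca then stood at 12.2 and 22.3 UMIs per 10000, which was 4.35 (3.49 to 5.48) and 2.81 (2.47 to 3.21) times the level of macrophage-like nuclei. Gal stood at 0.911 and 1.42 UMIs per 10000 in type 7, but 40.9% of its female UMIs came from 1 nucleus. On levels alone it too was 2-fold above both backgrounds, with a lowest ratio of 2.03 (1.30 to 3.32) to male macrophage-like nuclei, and it was not counted because the 0.5 UMIs added for all genes brought that ratio under 2. Without the nucleus with the most Gal UMIs the male ratio was 1.83.

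To mark nuclei that held more of a peptide than droplets of other cells did, a limit was set in each library. It was the 99th percentile of UMIs over macrophage-like and endothelial cell-like nuclei, rounded down to a whole number. The share of background nuclei past a limit was thus small by construction. For Calca the limit was 4 UMIs in female and 9 UMIs in male nuclei, and 32 of 47 female (68.1%) and 64 of 96 male type 7 nuclei (66.7%) exceeded it, against 2 of 362 and 4 of 337 background nuclei. For Tac1, with a limit of 3 UMIs in both libraries, the numbers were 29 (61.7%) and 73 (76.0%). The type 7 nuclei had medians of 11707 and 10237 UMIs, well above the background, so depth moved with these shares. Thinned to 1000 UMIs, Tac1 was found in 46.8% and 59.4% of type 7 nuclei, 4.86% and 20.6% of macrophage-like nuclei and 11.6% and 16.8% of endothelial cell-like nuclei.

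Several peptides shared nuclei in type 7. Of the female nuclei past the Tac1 limit, 28 of 29 were past the Calca limit, and of the male ones 59 of 73 were. Adcyap1 nuclei were nested in the same way: 26 of 27 female and 50 of 56 male nuclei past the Adcyap1 limit were also past that of Calca. Every one of the 11 female type 7 nuclei past the Gal limit, and 20 of the 21 male ones, was past the Calca limit. A deep nucleus passes several limits more easily, and the part of depth in these overlaps was not tested.

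Calcb, the beta CGRP gene, was also above background in another jugular-type population. In type 3, holding the itch receptor gene Mrgprd, Calcb stood at 0.962 (0.773 to 1.18) and 0.939 UMIs per 10000 (0.814 to 1.08), and Nmb stood at its highest level, 0.534 (0.397 to 0.705) and 0.564 (0.469 to 0.674). The male Nmb level in type 7, 0.534 (0.415 to 0.677), and in type 2, 0.509 (0.405 to 0.631), lay within the interval of type 3. Nmb stood at 0.191 and 0.542 UMIs per 10000 in female and male macrophage-like nuclei and at 0.203 and 0.457 in endothelial cell-like nuclei, so male type 3 was not above its background beyond counting error. Past the limit of 1 UMI, Nmb was found in 14 of 67 female and 32 of 144 male type 3 nuclei. Of the background nuclei that set the limit, 0 of 362 and 3 of 337 were past it. The female count of 0 allows a share of up to 0.829%. Type 3 nuclei were deeper, with medians of 6502 and 12399 UMIs. Thinned to 1000 UMIs, Nmb was found in 5.97% and 6.25% of them, beside 2.08% and 8.51% of macrophage-like and 1.86% and 6.12% of endothelial cell-like nuclei. Of the 8 members with enough UMIs in type 3, Calcb alone was at least 2-fold above both backgrounds, beside 9.36% of genes. Its male level of 0.939 stood against 0.446 in male macrophage-like nuclei, the latter from 14 UMIs. Calca itself was 2.18 and 3.97 UMIs per 10000 in type 3, below both backgrounds of each library, although 14 of 67 female and 20 of 144 male type 3 nuclei exceeded the Calca limit.

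In type 14, led by the cold receptor gene Trpm8, Tac1 stood at 2.17 (1.70 to 2.72) and 2.48 UMIs per 10000 (2.01 to 3.04), with 37 of its 74 female UMIs in 1 nucleus. Without the nucleus with the most Tac1 UMIs the female and male levels were 1.20 and 2.20. Tac1 stood at 1.02 and 2.64 in macrophage-like nuclei and at 1.18 and 1.64 in endothelial cell-like nuclei. In type 11, with the highest Piezo2 level at 25.4 UMIs per 10000, Calca stood at 1.02 and 1.74 UMIs per 10000, below both backgrounds of each library.

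In the other types with at least 20 nuclei in each library, no member with enough UMIs was 2-fold above both backgrounds in both libraries. The share of all genes that were was 6.06% in type 1, 9.28% in type 2, 5.20% in type 4, 8.66% in type 5 and 8.21% in type 9. It was 9.16% in type 10, 9.07% in type 11, 9.0% in type 13, 7.99% in type 14 and 9.32% in type 15. Members with enough UMIs numbered 9 in type 2, 7 in types 4 and 10, and 6 in types 1, 5 and 9. They numbered 5 in types 11, 14 and 15 and 4 in type 13, and Sst was not among them in any of these types.

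**Figure D3:**
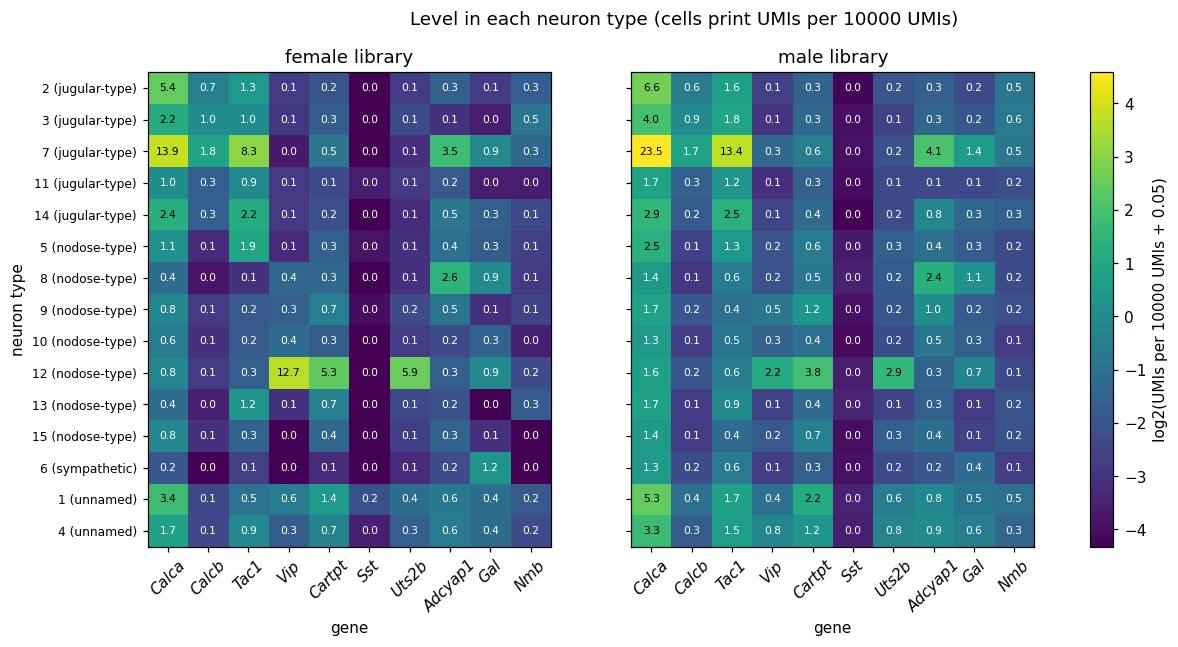
Level of each gene (x axis) in the 15 neuron types (y axis, with the group of each type) in the female and male libraries, where cells print UMIs per 10000 UMIs and colour shows log2(UMIs per 10000 + 0.05). Calca and Tac1 are brightest in type 7 of both libraries, Adcyap1 in types 7 and 8, and Vip, Cartpt and Uts2b in type 12.

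Type 12 of the nodose-type nuclei (29 female and 66 male) was led by genes that include Cckar and Glp1r, receptors for the gut hormones cholecystokinin and glucagon-like peptide 1. Vip stood there at 12.7 UMIs per 10000 (11.5 to 14.0) in female and 2.17 (1.83 to 2.55) in male nuclei. Uts2b stood at 5.86 (5.06 to 6.75) and 2.95 (2.55 to 3.39), and Cartpt at 5.28 (4.52 to 6.13) and 3.78 (3.33 to 4.28). Each was the highest level of its gene among the types in its library. Of the 7 members with enough UMIs, these 3 were at least 2-fold above both backgrounds in both libraries, beside 8.04% of genes tested there.

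The female values rested largely on 1 nucleus. It held 85656 UMIs, of which 391 were Vip, 144 Uts2b and 120 Cartpt, and it gave 94.7% of the female type 12 Vip UMIs, 75.4% of those of Uts2b and 69.8% of those of Cartpt. No other female neuron-like nucleus held more than 7 Vip UMIs. Without the nucleus with the most UMIs of the gene, female type 12 stood at 0.916 UMIs per 10000 for Vip (0.574 to 1.39), 1.96 for Uts2b and 2.16 for Cartpt. The male values without such a nucleus were 1.48 for Vip, 2.49 for Uts2b and 3.38 for Cartpt.

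Uts2b and Cartpt were above both backgrounds in both libraries without these nuclei, with ratios to macrophage-like nuclei of 3.08 (1.79 to 5.48) and 3.24 (1.92 to 5.67) in the female library. For Vip the female ratio to macrophage-like nuclei fell short of 2-fold, at 1.92 (0.952 to 3.98), while the male ratio was 3.10 (1.79 to 5.76). Counted by nuclei, Vip exceeded its limit of 1 UMI in 10 of 29 female (34.5%) and 17 of 66 male (25.8%) type 12 nuclei. Of the background nuclei that set the limit, 2 of 362 and 2 of 337 exceeded it. Thinned to 1000 UMIs, the Vip share of nuclei was 17.9% (6.06 to 36.9) and 15.2% (7.51 to 26.1) in type 12, beside 5.56% and 7.09% in macrophage-like nuclei. In endothelial cell-like nuclei it was 2.79% and 4.59%. The lower end of the female type 12 interval lay close to the macrophage-like share.

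Uts2b and Cartpt often met in the same type 12 nucleus. Of the nuclei past the Uts2b limit (1 UMI in female and 2 UMIs in male nuclei, as for Cartpt), 8 of 9 of the female and 13 of 18 of the male nuclei were past the Cartpt limit. Among all type 12 nuclei, 12 of 29 female and 23 of 66 male nuclei were past it. The part of depth in this overlap was not tested. The male nucleus with the most Vip UMIs (98, with 82 of Uts2b and 3 of Cartpt) was in the unnamed type 4, of which it gave 54.7% of the Vip and 48.0% of the Uts2b UMIs in that library. Types 1 and 4 also held Cartpt, at 1.35 and 2.18 UMIs per 10000 in type 1 and 0.746 and 1.23 in type 4. Type 1 nuclei were shallow, with a median of 2574 UMIs, and the male level in type 4 lay between those of endothelial cell-like (1.17) and macrophage-like nuclei (1.31).

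**Figure D4:**
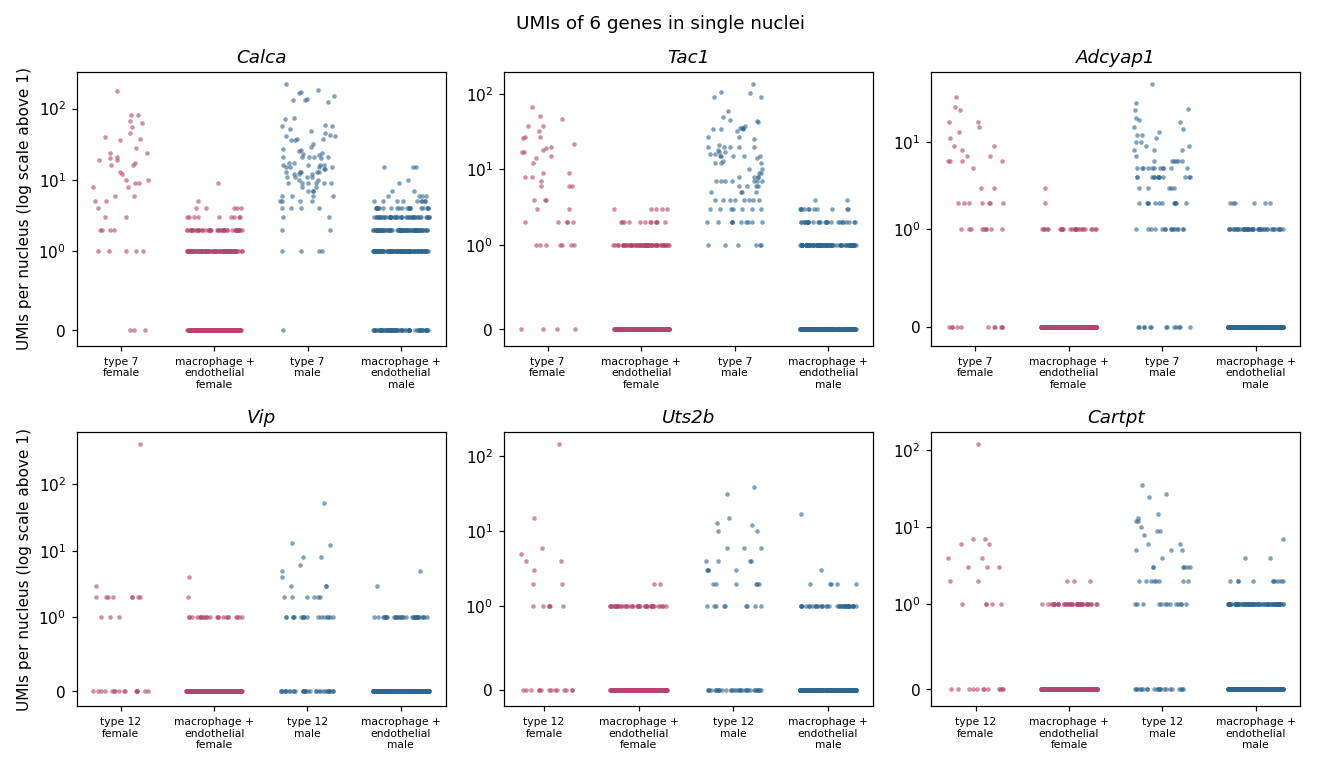
UMIs per nucleus (y axis, linear below 1 and logarithmic above) of Calca, Tac1 and Adcyap1 in type 7 and of Vip, Uts2b and Cartpt in type 12, each beside macrophage-like and endothelial cell-like nuclei of the same library, with 1 point per nucleus spread sideways at random. Type 7 nuclei spread up to 220 Calca UMIs, and 1 female type 12 nucleus stands apart with 391 Vip UMIs.

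PACAP transcripts marked a second population on the nodose side. In type 8, led by Rmst and C1ql3 (34 female and 100 male nuclei), Adcyap1 stood at 2.64 (2.23 to 3.12) and 2.37 UMIs per 10000 (2.12 to 2.65). Calca stood at 0.391 and 1.38 UMIs per 10000 in the same nuclei, which is below both backgrounds, and no type 8 nucleus exceeded the Calca limit. Adcyap1 exceeded its limit in 24 of 34 female (70.6%) and 40 of 100 male (40.0%) type 8 nuclei. The limit was 1 UMI in female and 2 UMIs in male nuclei, so these shares are not on the same scale. Thinned to 1000 UMIs, Adcyap1 was found in 26.5% and 21.0% of type 8 nuclei, beside 3.47% and 7.80% of macrophage-like and 4.19% and 5.61% of endothelial cell-like nuclei. Of the 7 members with enough UMIs in type 8, Adcyap1 alone was at least 2-fold above both backgrounds, beside 8.32% of genes. Without the top nucleus its level was 5.44 (3.12 to 10.2) and 4.03 (2.5 to 6.89) times that of macrophage-like nuclei.

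With 1 high type on each side, the Adcyap1 ratio of jugular-type to nodose-type nuclei was close to 1, at 1.28 (1.08 to 1.52) in female and 1.21 (1.09 to 1.35) in male nuclei. Without types 7 and 12 the log2 ratio over both libraries was -1.59. A fall was fixed by this choice, since it removes the high jugular-type type and keeps type 8. Gal stood at 0.912 and 1.07 UMIs per 10000 in type 8 and at 0.921 and 0.733 in type 12, with ratios of jugular-type to nodose-type nuclei of 0.749 (0.564 to 0.992) and 1.05 (0.889 to 1.24). Of the female type 8 Gal UMIs, 59.2% came from 1 nucleus, and without it the type 8 level was 0.397 UMIs per 10000, beside 0.254 in macrophage-like nuclei. The male type 12 level was close to the 0.701 of male macrophage-like nuclei. Of its 49 UMIs, 22 came from 1 nucleus, and without it the level was 0.424, below both male backgrounds. The female type 12 level without such a nucleus was 0.666. In the sympathetic-like type 6, Gal stood at 1.16 UMIs per 10000 in 9 female nuclei and 0.382 in 147 male nuclei.

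Somatostatin was barely measured. Sst had 10 UMIs in the female and 39 UMIs in the male neuron-like nuclei, which is 0.0123 and 0.0210 UMIs per 10000. Macrophage-like nuclei had none, which allows up to 0.0954 UMIs per 10000 in female and 0.0956 in male nuclei, so a level above background was not detectable at this depth. Endothelial cell-like nuclei held Sst at 0.0338 and 0.0457 UMIs per 10000, from 2 and 3 UMIs. The most Sst UMIs in 1 neuron-like nucleus were 3 in female and 2 in male nuclei.

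The genes whose levels over 14 neuron types with at least 20 nuclei in each library ran most like those of each member were sought among 6684 other genes, with likeness as the lower of the 2 libraries' Pearson correlations. Types of 1 library share free RNA and depth, so these values are descriptions. For Calca they were Aqp1 (0.880 in female and 0.885 in male nuclei), a water channel, and Kit (0.886 and 0.876). Calcb also ran most like Aqp1 (0.915 and 0.970), followed by Ctsl, and Tac1 ran like Pik3r1 (0.865 and 0.858) and Gfra3 (0.809 and 0.889).

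Vip and Uts2b had Pde1a, a calcium-dependent phosphodiesterase, as the most similar gene, at 0.838 and 0.830 for Vip and 0.824 and 0.823 for Uts2b. Cartpt was most like Ass1 (0.847 and 0.912), argininosuccinate synthase, which was also second for Uts2b. Pde1a was highest in type 12, at 4.79 UMIs per 10000 in female and 2.32 in male nuclei. The female type 12 nucleus described above held 71.9% of the Vip and 49.0% of the Uts2b UMIs of female neuron-like nuclei. For Cartpt its share was 24.2%. The correlations were not computed without that nucleus, so its part in the female values was not tested. The remaining pairs were Chd3 and Bcl11a for Adcyap1, Saraf and 6330403K07Rik for Gal, and Il6st and Capn5 for Nmb, with correlations between 0.826 and 0.915.

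No member differed 2-fold between the male and female libraries in neuron-like nuclei as a whole, while 2.29% of 17544 genes were at least 2-fold higher and 1.53% at least 2-fold lower in the male library. The members' median log2 ratio of male to female was 0.36, beside 0.018 over all genes. The same median in macrophage-like and endothelial cell-like nuclei together was 0.80 over 9 members, beside -0.013 over all genes. These are medians, and single members differed: Vip stood at 0.477 and 0.478 UMIs per 10000 in female and male macrophage-like nuclei, and Uts2b at 0.636 and 0.478. Calca, for example, stood at 2.99 and 4.19 UMIs per 10000 in female and male neuron-like nuclei, 1.40-fold higher in the male library, and at 3.36 and 6.41 in satellite glia-like nuclei, 1.91-fold higher.

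Vip was lower in the male library, at 0.667 UMIs per 10000 in female and 0.347 in male neuron-like nuclei, a log2 ratio of -0.94 (-1.11 to -0.77). The female nucleus described above gave 71.9% of the female Vip UMIs. Without the nucleus with the most Vip UMIs in each library the levels were 0.190 and 0.295, and the log2 ratio turned to 0.64 (0.38 to 0.91). Uts2b moved from 0.03 (-0.17 to 0.23) to 0.81 (0.55 to 1.07) in the same way. Calcb had no difference beyond counting error with or without such nuclei, at -0.07 (-0.26 to 0.11) and 0.0016 (-0.19 to 0.19).

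Within type 7, where the CGRP and substance P genes were well above background, Calca was 0.76 and Tac1 0.70 higher in the male library on the log2 scale, while Calcb was 0.10 lower. The difference for Calca in macrophage-like nuclei was 1.5 on the same scale. Adcyap1 differed by 0.23 in type 7 and -0.16 in type 8.

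**Figure D5:**
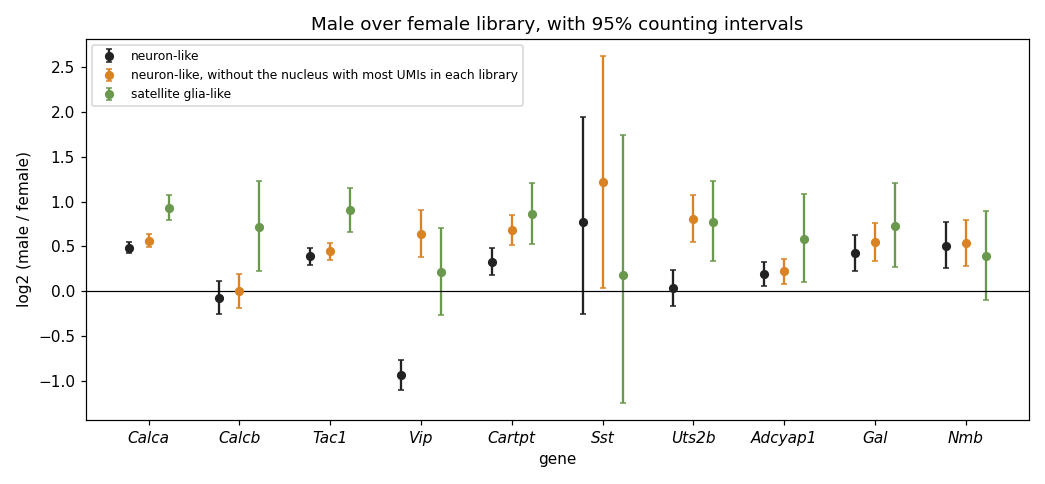
Log2 ratio of the male to the female level of each gene (y axis) in neuron-like nuclei, in the same nuclei without the 1 with the most UMIs of the gene in each library, and in satellite glia-like nuclei, with 95% counting intervals. The Vip point moves from -0.94 to 0.64 when 1 nucleus per library is left out. All satellite glia-like points lie above 0, and the intervals of Vip, Sst and Nmb there include 0.

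The machinery that makes and releases peptides was described from a list of 18 genes. In neuron-like nuclei 4 of them, Pcsk2, Cadps, Syt7 and Ptprn2, were at least 2-fold higher than in both backgrounds in both libraries, beside the 6.90% of all genes given above. Cadps, which primes dense-core vesicles for release, stood at 13.9 and 12.4 UMIs per 10000 in neuron-like nuclei, against 1.46 and 2.45 in macrophage-like nuclei. The median log2 ratio of the list was 0.32. Between jugular-type and nodose-type nuclei 1 of the 18 genes was at least 2-fold higher, beside 5.05% of all genes, and 1 was at least 2-fold lower, beside 4.64%. Pcsk1, the prohormone convertase 1/3 gene, was lower in jugular-type than in nodose-type nuclei, at 0.288 against 1.89 UMIs per 10000 in female and 0.378 against 1.92 in male nuclei. Its highest level was in type 12, at 5.55 and 5.38 UMIs per 10000, followed by type 8 at 3.15 and 3.23, and in the peptide-rich type 7 it stood at 0.166 and 0.299. Syt7, a calcium sensor of exocytosis, was higher in jugular-type nuclei, at 3.44 against 0.379 and 3.85 against 0.393 UMIs per 10000.

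Receptors for the 10 peptides were sparse, and 6 of 21 had enough UMIs to be compared between neuron-like and background nuclei. None was at least 2-fold higher in neuron-like nuclei in both libraries and 1, Calcrl, was at least 2-fold lower, beside 5.56% of all genes. Calcrl, the shared subunit of the CGRP and adrenomedullin receptors, stood at 2.86 and 2.09 UMIs per 10000 in endothelial cell-like and 0.162 and 0.173 in neuron-like nuclei. Ramp2, whose product turns that subunit into an adrenomedullin receptor, stood at 0.811 and 1.08 against 0.0491 and 0.0555. These were the 2 receptor genes at least 2-fold higher in endothelial cell-like than in neuron-like nuclei in both libraries, beside 12.9% of all genes. Ramp1, the partner that makes Calcrl a CGRP receptor, was low in each, at 0.0507 and 0.0152 UMIs per 10000 in endothelial cell-like and 0.0368 and 0.0383 in neuron-like nuclei, with 3 UMIs and 1 UMI behind the endothelial cell-like values. Macrophage-like nuclei held Calcrl at 0.731 and 0.510 and Ramp1 at 0.286 and 0.0637 UMIs per 10000, the last from 2 UMIs.

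Among neuron types, Calcrl stood highest in the nodose-type types 5 (0.743 and 0.951 UMIs per 10000) and 10 (0.298 and 0.513). Galr1, a galanin receptor, was the receptor gene at least 2-fold higher in jugular-type nuclei, at 0.136 against 0.0265 in female and 0.134 against 0.0235 in male nuclei. It was 1 of 4 with enough UMIs, beside 5.05% of all genes. It was highest in type 7, at 0.359 and 0.361, the type that held the most Calca. Adcyap1r1, the PACAP receptor gene, stood at 1.16 and 0.821 UMIs per 10000 in the sympathetic-like type 6 and at no more than 0.0748 in any other type.

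Of 24 other neuropeptide genes, 2 had enough UMIs to be compared between neuron-like and background nuclei in both libraries, Npy and Grp, and neither was 2-fold higher or lower than both backgrounds in both libraries. Npy, a peptide of sympathetic neurons, stood at 6.58 UMIs per 10000 in the 9 female and 2.03 in the 147 male nuclei of type 6, and at no more than 0.242 in any other type. The jugular-type and nodose-type comparison had no gene of that list with enough UMIs.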

How the data were processed

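Nuclei of pooled flash-frozen ganglia were captured with 10x Genomics 3' chemistry. The authors deposited a matrix of UMI counts per gene and nucleus, made with Cell Ranger 7.1.0 on mm10 with introns included, the libraries having been aggregated with depth normalization. Per the study's methods, debris was removed with DIEM (score under 0.5, over 250 genes and over 1000 UMIs) and doublets by Cell Ranger and DIEM; no doublet caller was run here. Barcode suffixes were matched to the sexes by their numbers of nuclei, with sex-linked genes as a check. Depth was 980 to 124136 UMIs per nucleus.

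Nuclei were clustered here (Python 3 with numpy, scipy, pandas, scikit-learn and python-igraph) on log2 values of 2000 variable genes, 30 principal components and 20 neighbours, by Louvain at resolution 1; neuron-like clusters were clustered again with 20 components. Members, peptide lists, sex-linked genes and genes of the study's sex comparison were left out. Coarser settings (10 components and 243 neighbours) were tried and mixed pituitary with nodose-type cells. Neuron types took the marker list with the highest mean log2 fold, and stayed unnamed where a glial list was higher, a rule set after seeing the data. Some marker genes of the types are not reported here. Cell names were rebuilt and may differ from the study's.

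Levels are summed UMIs per 10000 UMIs with exact Poisson intervals; ratios have conditional binomial and shares exact Clopper-Pearson 95% intervals. Counts over all genes added 0.5 UMIs and needed 20 UMIs in each compared pair. With 1 library per sex no test was run and no p-value is given. A count of 0 allows up to 3 UMIs. The calling rule was tested on simulated data. All 10 members were named, genes of the peptide lists by their list counts, and for each member with 50 UMIs in each library the 2 most similar genes of at least 200 UMIs. Members and lists were chosen with earlier results of these data known. Promoter sequences are from RefSeq (GRCm38.p6). Alternatives are given in the closing section.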

Additional observations from a re-analysis of the deposited data

Results flagged for a closer look

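The log2 ratio of Tac1 in neuron-like to macrophage-like nuclei had opposite signs in the libraries. It was 0.55 for females and -0.44 for males, each with a counting interval that left out 0. The difference was not tested, since each sex was 1 library. The levels behind it were 1.49 against 1.02 UMIs per 10000 for females and 1.95 against 2.64 for males. Over endothelial cell-like nuclei the Tac1 log2 ratio had the same sign in both libraries. It was 0.34 (-0.011 to 0.71) for females and 0.25 (-0.028 to 0.54) for males, with intervals that included 0.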

How the results depend on the processing

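No paired analysis was possible because each sex was 1 pool and 1 library, with no replicate numbers. The count of members 2-fold above both backgrounds, 0, became 1 at a fold limit of 1.5 (Adcyap1). It also became 1 with macrophage-like nuclei alone as background (Sst, which had no UMI there). Set against the UMIs that a count of 0 allows, the Sst ratio was 0.129 in female and 0.220 in male nuclei. That call therefore does not place Sst above background. The count of members became 8 with levels as UMIs per nucleus, an alternative chosen after seeing the data. The count higher in jugular-type nuclei, 4, was 3 or 4 under each alternative run. The count lower there, 4, became 1 at a fold limit of 3, 1 with the mean over nuclei of the share of UMIs, and 0 with nuclei thinned to 1000 UMIs, while each library alone gave 4. Both counts were also 4 without the nucleus of each group with the most UMIs of each gene, an alternative chosen after seeing the data. Each lower count of 4 includes Sst. Its female UMIs were 1 against 2, and 0 against 1 without those nuclei. The median log2 male to female ratio of 0.36 became 0.64 with types counting the same and 0.55 without the nucleus with the most UMIs of each gene. Of log2 ratios of neuron-like to background nuclei, Calca turned to 0.17 in the female library alone, Tac1 to -0.011 in the male library alone, and Cartpt to 0.23 in the female library alone and 0.098 with thinned nuclei. As UMIs per nucleus, Calca turned to 1.86, Cartpt to 1.82 and Uts2b to 1.37. Without types 7 and 12 the Adcyap1 ratio of jugular-type to nodose-type nuclei turned to -1.59. A fall there follows by construction, since type 7 is removed and type 8, also high in Adcyap1, is kept. A count also falls at a higher limit by construction. The cause of the other changes was not tested. Depth limits Sst, most receptors and most other neuropeptides, which had too few UMIs to compare.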

Other observations

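Pomc, the precursor of corticotropin and melanocyte-stimulating hormones, stood at 11.5 UMIs per 10000 in the 89 male pituitary-like nuclei and at 0.0328 in the 67 female ones. Pcsk2, the prohormone convertase 2 gene, stood at 16.7 and 0.819 UMIs per 10000 in the same male and female nuclei. Pomc was among the markers that named this class. Whether both libraries held the same kinds of pituitary-like cells was not tested. In male neuron-like nuclei Pomc stood at 0.0566 UMIs per 10000, below the 0.223 of male macrophage-like nuclei.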
